A study of Mus musculus with 6 samples.

Results

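Transcript levels were read for 6 genes of the aryl hydrocarbon receptor (AhR) pathway, chosen by name out of the 24940 genes of the deposited table: the receptor Ahr, its DNA-binding partner Arnt, the repressor Ahrr, the feedback enzyme Tiparp and the cytochrome P450 genes Cyp1a1 and Cyp1b1. All 6 were found. These genes and the gene lists used below were chosen with earlier results of these data known. The samples were bone marrow-derived macrophages (BMMs), which serve as osteoclast precursors, with no genetic modification named, in 3 conditions of 2 libraries each. M-CSF was present throughout the 3 days in all cultures, at 30 ng/mL. The -R cultures had M-CSF alone, the +R cultures also had RANKL, the cytokine that drives osteoclast formation, at 100 ng/mL, and the R+LE cultures had RANKL and LE at 10 μg/mL. LE is a methanol extract of Abeliophyllum distichum leaves, so it is a mixture, and no condition held LE without RANKL. The labels give C57BL/6 mice aged 6 to 8 weeks as the source of marrow, whereas the study's methods describe male ICR mice. No source states whether the 2 libraries of a condition came from separate mice or cultures, so the p-values measure only the spread between these libraries, which may be technical.

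AhR is a ligand-activated transcription factor of the bHLH-PAS family that waits in the cytosol bound to the chaperone HSP90. Dioxins, plant flavonoids, indoles and tryptophan metabolites bind it, after which it enters the nucleus, pairs with ARNT and binds xenobiotic response elements near its target genes. Cyp1a1 and Cyp1b1, which encode oxidizing enzymes, are among its classical targets in many cell types, and so are Ahrr, whose product competes with AhR for ARNT, and Tiparp, whose product is an ADP-ribosyltransferase that dampens AhR. Macrophages and osteoclast lineage cells are known to express the receptor.

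The 250 bases before the annotated start are printed for the 4 target genes, because the pathway is defined by a short motif at such genes. The sequences are from RefSeq on GRCm38.p6, the assembly that mm10 names, and 5 of the 6 genes had an entry, with none for Ahr. They read 5′ to 3′ on the strand of the gene, and capitals mark the core motif GCGTG or its reverse complement.

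Ahrr, chr13:74292332-74292581, minus strand: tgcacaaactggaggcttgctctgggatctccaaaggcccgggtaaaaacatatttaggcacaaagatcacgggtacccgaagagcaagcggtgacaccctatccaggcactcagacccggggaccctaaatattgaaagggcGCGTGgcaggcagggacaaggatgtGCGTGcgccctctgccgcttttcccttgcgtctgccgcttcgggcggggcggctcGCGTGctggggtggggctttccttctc
Tiparp, chr3:65528197-65528446, plus strand: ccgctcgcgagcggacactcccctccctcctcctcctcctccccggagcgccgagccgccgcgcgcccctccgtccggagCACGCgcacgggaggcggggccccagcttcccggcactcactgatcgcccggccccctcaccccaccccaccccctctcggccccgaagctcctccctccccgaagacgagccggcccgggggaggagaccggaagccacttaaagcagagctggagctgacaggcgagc
Cyp1b1, chr17:79715062-79715311, minus strand: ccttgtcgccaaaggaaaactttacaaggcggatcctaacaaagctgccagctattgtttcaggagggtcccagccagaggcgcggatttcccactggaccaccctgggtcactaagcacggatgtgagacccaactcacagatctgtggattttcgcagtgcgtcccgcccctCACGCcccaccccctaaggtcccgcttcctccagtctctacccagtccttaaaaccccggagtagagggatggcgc
Cyp1a1, chr9:57697363-57697612, plus strand: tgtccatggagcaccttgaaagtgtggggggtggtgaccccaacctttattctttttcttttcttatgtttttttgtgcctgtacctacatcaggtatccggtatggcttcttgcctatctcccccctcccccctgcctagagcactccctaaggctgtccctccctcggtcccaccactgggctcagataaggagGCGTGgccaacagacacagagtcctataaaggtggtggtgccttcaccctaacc

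The core was searched on both strands. Ahrr held 3 matches, the nearest from 27 to 23 bases before the start, and the other targets and Arnt held 1 each. Of all 32851 promoter entries of the same length, 28.2% held at least 1 match and 2.77% held 3 or more. The longer form TNGCGTG, which contains the core, was present once in the Ahrr window and in none of the other members' windows, against 4.1% of all entries. A match is a description of letters, and the known enhancer of Cyp1a1 lies further upstream than this window. The Cyp1a1 window precedes the transcript that was counted, and the RefSeq gene also has a start further upstream, at 57687928.

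The libraries held between 29390430 and 34846325 mapped reads, and replicates differed by more than counting noise. Macrophage markers (Csf1r, Adgre1, Itgam, Cd68 and Lyz2) were present in every condition, with summed levels from 6374 to 6986 RPKM (mapped reads scaled by transcript length and library size) in -R, 2603 to 3347 in +R and 3627 to 4041 in R+LE. Lyz2 made up most of that sum, and the others did not all move with it: Itgam averaged 70.5 RPKM in -R and 90.2 in +R, and Csf1r 206.0 RPKM in +R and 185.2 in R+LE. A list of 7 osteoclast markers summed to 40.1 to 41.1 RPKM in -R, 1737 to 1964 RPKM in +R and 299.4 to 342.0 RPKM in R+LE, with Calcr and Oscar at 0 in -R. The ribosomal precursor entry Rn45s accounted for 4.97% to 6.83% of gene reads in the -R libraries and for 10.9% to 13.5% in the other 4. A gene was tested on the log2(RPKM + 0.5) scale with limma where its mean over the 6 libraries was at least 0.5 RPKM, and it passed at a Benjamini-Hochberg adjusted p below 0.05. Of the 6 genes, 5 were tested and Cyp1a1 lay below that minimum. An exact permutation test of 2 libraries against 2 cannot give a p below 0.333 for a single gene, so each result rests on the spread that limma shares across 11595 genes.

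With RANKL the receptor and its repressor were higher and the partner was lower, while the target genes Tiparp and Cyp1b1 did not pass the test. In +R against -R, 2 of the 5 tested genes passed as higher, where 23.9% of all genes tested did, and 1 passed as lower, where 21.5% did. The 3 that passed stand beside a background of 45.4% in either direction. A gene was called where it passed and also changed 2-fold, and Ahr and Ahrr were called as higher and no member as lower, where 6.58% and 8.92% of all genes were, 15.5% together. The groups did not overlap for any of the 5, nor for 75.2% of all genes, so separation of 2 libraries from 2 is the rule in this comparison. When LE was added to RANKL, none of the 5 passed in limma, where 12.0% of all genes did, and none was called, where 1.46% were as higher and 1.78% as lower, 3.23% together. The count was 2 at an unadjusted p below 0.05, where 23.3% of all genes were, and 0 in limma's voom method on recovered reads. In R+LE against -R Ahr and Ahrr passed as higher, where 15.3% of all genes did, and Arnt as lower, where 19.0% did, with a background of 34.3% in either direction. Ahr and Ahrr were again called, where 3.92% of all genes were as higher and 6.36% as lower, 10.3% together. The groups did not overlap for 4 of the 5, against 65.5% of all genes. Both comparisons use the same -R libraries. The summed osteoclast markers given above were also higher with RANKL and lower with LE, and their part in the members' levels was not tested. In bulk samples, more transcripts in each cell and more cells that make them cannot be told apart.

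**Figure D1:**
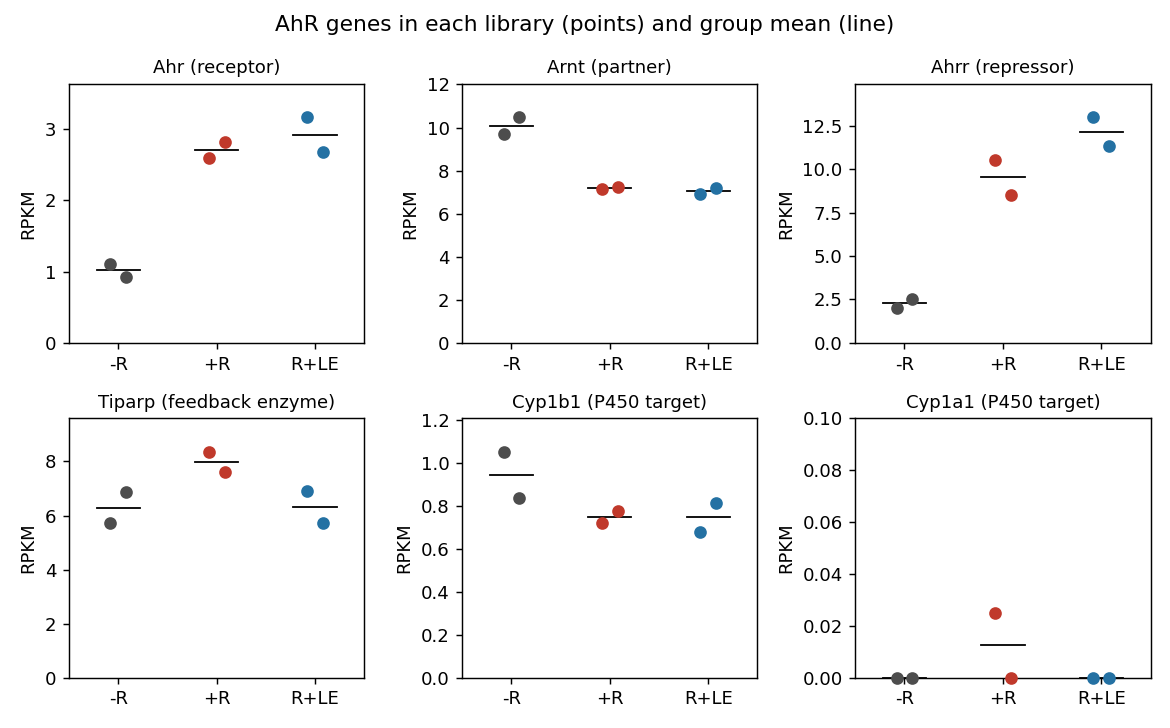
RPKM of the 6 AhR genes by condition on linear axes that start at 0, with a point for each library and a line at the mean of 2 libraries. Ahr and Ahrr are higher in all 4 libraries with RANKL than in -R, Arnt is lower in all 4, and Cyp1a1 is at 0 in 5 of the 6 libraries.

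Ahr, the receptor, lies on chromosome 12 of mm10 from 35497979 to 35534989 on the minus strand. Its level was 1.11 and 0.927 RPKM in the -R libraries, 2.60 and 2.81 RPKM in +R, and 3.16 and 2.68 RPKM in R+LE. The -R libraries lay below the other 4, and the +R and R+LE libraries overlapped. The mean rose 2.65-fold with RANKL, from 1.02 ± 0.13 to 2.70 ± 0.151 RPKM (SD, n = 2 each), a log2 difference of 1.08 on the log2(RPKM + 0.5) scale (standard error 0.17, adjusted p = 9.38e-05 in limma). Without -R replicate 2 it was 0.99, which still passed (adjusted p = 0.00341) but was below 2-fold, so Ahr was then not called. With LE added the log2 difference was 0.09, with a 95% interval from -0.27 to 0.45 (adjusted p = 0.83 in limma), and its sign turned to -0.01 without R+LE replicate 1. Against -R, R+LE stood 1.17 higher on the same scale (adjusted p = 6.7e-05 in limma). The gene had from 177 to 547 reads in a library. Over all its annotated exons, 127 bases are shared with a transcript on the opposite strand, and the counting did not separate strands. Whether those bases lie in the counted transcript was not checked.

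Arnt, the partner that AhR needs to bind DNA and that also pairs with the hypoxia factors, lies on chromosome 3 from 95434390 to 95497239 on the plus strand. It measured 9.71 and 10.5 RPKM in -R, 7.16 and 7.25 RPKM in +R, and 6.92 and 7.21 RPKM in R+LE. Both -R libraries lay above the other 4. The fall with RANKL was 1.40-fold between the means, a log2 difference of -0.46 (standard error 0.13, adjusted p = 0.0111 in limma), which passed the test but fell short of 2-fold. Arnt no longer passed with some single libraries left out: the adjusted p was 0.0767 without -R replicate 2, 0.0696 without +R replicate 1 and 0.055 without +R replicate 2, with log2 differences of -0.41, -0.45 and -0.47. LE left a log2 difference of -0.03 against +R, with a 95% interval from -0.31 to 0.26 (adjusted p = 0.947 in limma), whose sign turned under other scalings. R+LE against -R gave -0.48 (adjusted p = 0.0111 in limma), and -0.43 with an adjusted p of 0.0831 without -R replicate 2. The next gene downstream on the same strand is Ctsk, the cathepsin K gene of osteoclasts, which starts 1971 bases past the end of Arnt. Ctsk went the other way, from 0.216 and 0.182 RPKM in -R to 83.3 and 64.3 RPKM in +R and 18.2 and 14.3 RPKM in R+LE.

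Ahrr, the repressor, lies on chromosome 13 from 74211118 to 74292331 on the minus strand. No other annotated gene was found to share its exons, with unconfirmed gene models left out of the search. Its level was 2.01 and 2.54 RPKM in -R, 10.5 and 8.50 RPKM in +R, and 13.0 and 11.3 RPKM in R+LE. Each condition stood apart from the others, with R+LE highest. The mean rose 4.19-fold with RANKL, from 2.27 ± 0.378 to 9.52 ± 1.45 RPKM (SD, n = 2 each). The log2 difference of 1.85 (standard error 0.16, adjusted p = 1.47e-07 in limma) was the largest among the 5 tested members in that comparison. Against -R, R+LE was 2.19 higher (adjusted p = 4.19e-08 in limma), a 5.34-fold ratio of the means. From +R to R+LE the log2 difference was 0.34 with a 95% interval from 0.00 to 0.67 (adjusted p = 0.206 in limma), and it ranged from 0.19 to 0.49 with each library left out. The groups did not overlap in that comparison for 2 of the 5 tested members, Ahrr and Tiparp, as for 49.0% of all genes tested, so the order of these libraries is no result by itself.

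Tiparp, the feedback enzyme, lies on chromosome 3 from 65528447 to 65555518 on the plus strand. It measured 5.73 and 6.86 RPKM in -R, 8.34 and 7.60 RPKM in +R, and 6.90 and 5.72 RPKM in R+LE. The +R libraries were the highest pair, while -R and R+LE overlapped. RANKL gave a log2 difference of 0.32 with a 95% interval from 0.00 to 0.64, which missed the threshold (adjusted p = 0.0928 in limma). Adding LE gave -0.32 with an interval from -0.64 to 0.00 (adjusted p = 0.214 in limma). The first of these crossed the threshold under other scalings, with an adjusted p of 0.0499 when libraries were centred on the median and 0.0448 when Rn45s was left out of the depth. R+LE against -R was 0.00, with an interval from -0.32 to 0.32. Over all annotated exons of Tiparp, 223 bases are shared with the pseudogene transcript 4931440P22Rik on the opposite strand. Whether they lie in the counted transcript was not checked.

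The cytochrome P450 targets were low or absent. Cyp1b1, on chromosome 17 from 79706953 to 79715041 on the minus strand, measured 1.05 and 0.835 RPKM in -R, 0.718 and 0.776 RPKM in +R, and 0.68 and 0.814 RPKM in R+LE. The -R libraries lay above the others by less than they differed from each other. The log2 difference was -0.21 with RANKL (95% interval from -0.65 to 0.23, adjusted p = 0.441 in limma) and 0.00 with LE added (95% interval from -0.44 to 0.44). In R+LE against -R it was -0.21 (95% interval from -0.65 to 0.23, adjusted p = 0.472 in limma). Cyp1b1 is also known from fibroblasts, and a list of 6 stromal markers summed to 14.8 to 16.4 RPKM in -R, 10.4 to 14.5 RPKM in +R and 7.58 to 8.60 RPKM in R+LE. Of that list, 6 genes were above 0 in -R and in +R and 5 in R+LE, where Lum was at 0, and Dcn reached at most 0.159 RPKM in any library. The part of such cells in the Cyp1b1 level was not tested.

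Cyp1a1, on chromosome 9 from 57697613 to 57703824 on the plus strand, is the gene most often used to read AhR activity. It had 2 reads in +R replicate 1, at 0.025 RPKM, and no read in the other 5 libraries. No library exceeded the 3 reads that a count of 0 allows, which for this transcript correspond to between 0.033 and 0.0391 RPKM depending on the library. That limit holds for the 5 libraries with no read, and the 2 reads of +R replicate 1 allow a higher level there. A level below that limit, or a change with RANKL or LE within it, was not detectable at this depth. Its neighbour and paralog Cyp1a2 had 1 read in each -R library and none in the other 4.

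**Figure D2:**
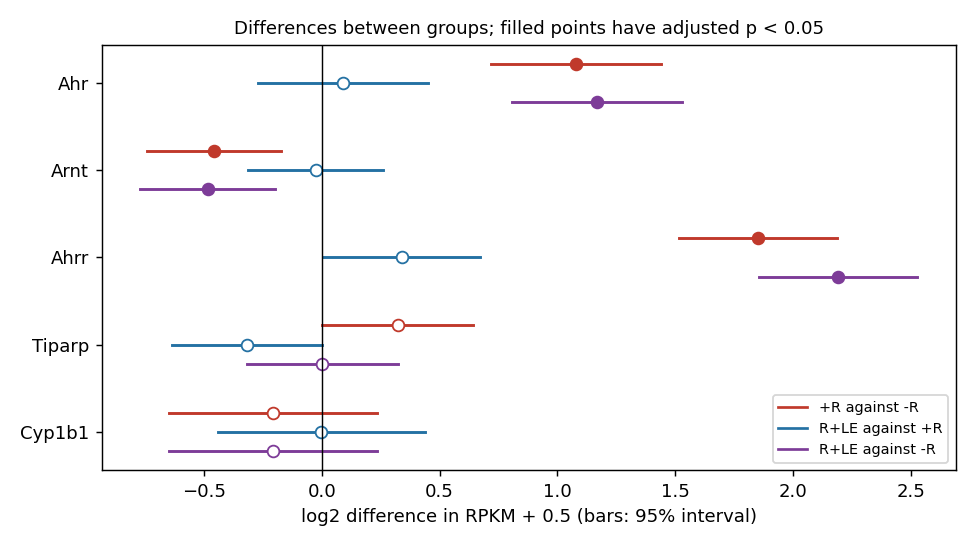
Log2 differences in RPKM + 0.5 for the 5 tested genes in 3 comparisons, with 95% intervals from limma and filled points where the adjusted p is below 0.05. Ahr, Ahrr and Arnt are filled in both comparisons against -R, and no point is filled for R+LE against +R.

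Since RPKM is per length, levels can be set side by side. In -R the order of mean RPKM was Arnt (10.1), Tiparp (6.29), Ahrr (2.27), Ahr (1.02), Cyp1b1 (0.942) and Cyp1a1 (0), and the libraries of Ahr and Cyp1b1 overlapped. In +R it was Ahrr (9.52), Tiparp (7.97), Arnt (7.20), Ahr (2.70) and Cyp1b1 (0.747), so that the repressor moved from the third place to the highest. The leading pair differed by little more than the SD of Ahrr, 1.45 RPKM. In R+LE Ahrr led at 12.1 ± 1.18 RPKM (SD, n = 2), followed by Arnt (7.07) and Tiparp (6.31), which differed by less than the SD of Tiparp, 0.834 RPKM.

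The genes whose profiles over the 6 libraries were most like those of the called members were found by the root mean square difference of centred log2(RPKM + 0.5) values, among 11594 other genes. For Ahr they were Ehd1, an endocytic recycling gene, at 0.0543, Mybl2, a transcription factor of dividing cells, at 0.0659, and Sapcd2 at 0.0697. Ehd1 averaged 86.0, 183.4 and 194.2 RPKM in -R, +R and R+LE. For Ahrr they were Rrad, a small GTPase gene, at 0.116, Zfp263 at 0.151 and Fas, the death receptor gene, at 0.161. Rrad averaged 2.20, 10.2 and 12.0 RPKM in the same order.

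Nqo1, Xdh and Nedd9, which are other known targets of the receptor, rose with LE, and so did the reads counted on Ugt1a6. A list of 12 such genes was written with the earlier result for Nqo1 known, so it is not independent evidence, and 6 of the 12 were above the expression minimum. The entries Ugt1a6a and Ugt1a6b overlap and are counted once here, which leaves 5 tested measurements. In R+LE against +R, 4 of the 5 passed as higher and none as lower, where 5.19% and 6.86% of all genes tested did. The median log2 difference of the 5 was 0.93, beside -0.05 for all genes tested. Without a minimum level 2 of them passed, as Xdh and Nedd9 then had adjusted p-values of 0.053 and 0.0561. Nqo1, a quinone reductase gene that is equally known as a target of the antioxidant regulator Nrf2, measured 3.26 and 3.87 RPKM in -R, 3.84 and 2.51 RPKM in +R, and 53.0 and 42.7 RPKM in R+LE, with a log2 difference of 3.73 (standard error 0.18, adjusted p = 5.64e-09 in limma). Ugt1a6a and Ugt1a6b, which encode glucuronosyltransferases, share 1311 bases of exon. Ugt1a6a also shares 2170 of its 2297 exon bases with Ugt1a7c and 1311 with each of Ugt1a1, Ugt1a2, Ugt1a5, Ugt1a8, Ugt1a9 and Ugt1a10, so these reads cannot be assigned to Ugt1a6 alone. Ugt1a6a went from 29.4 and 24.1 RPKM in +R to 65.5 and 50.8 RPKM in R+LE (log2 difference 1.10, adjusted p = 0.000283 in limma). Xdh, the xanthine dehydrogenase gene, gave 0.93 (adjusted p = 0.00106), Nedd9, a scaffold protein gene, gave 0.75 (adjusted p = 0.0113), and Pmm1 gave -0.14 (adjusted p = 0.699).

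With RANKL alone, Xdh, Nedd9 and the Ugt1a6 reads were lower and Pmm1 was higher. In +R against -R, 3 of the 5 measurements passed as lower and 1 as higher, where 21.5% and 23.9% of all genes tested did, with a median log2 difference of -0.53 beside 0.05 for all genes tested. Xdh fell from 38.8 and 52.6 RPKM in -R to 6.72 and 7.54 RPKM in +R, a log2 difference of -2.58 (standard error 0.16, adjusted p = 4.01e-09 in limma), and stood at 13.3 and 14.8 RPKM in R+LE. Nedd9 gave -0.96, both Ugt1a6 entries -0.53 and Pmm1 0.67, and Nqo1 did not pass (-0.16, adjusted p = 0.473). Without a minimum level Ugt1a6a and Ugt1a6b no longer passed (adjusted p = 0.0623 and 0.0579 in limma). The number passing was 3 without -R replicate 1, 2 without -R replicate 2 and 3 without +R replicate 2. In R+LE against -R, 3 of the 5 passed as higher and 1, Xdh, as lower, where 15.3% and 19.0% of all genes did. The higher were Nqo1 (log2 difference 3.57), the Ugt1a6 reads (0.58 for Ugt1a6a) and Pmm1 (0.53), which passed with RANKL but not with LE. Nedd9 gave -0.20 and did not pass (adjusted p = 0.417 in limma). Without a minimum level Ugt1a6a and Pmm1 no longer passed here (adjusted p = 0.0636 and 0.103 in limma). Without R+LE replicate 1 Ugt1a6a gave 0.40 and Pmm1 0.35. The 6 genes below the minimum were Cyp1a2, Aldh3a1 and Gsta1, of which the last 2 had no read in any library, Igfbp1 with at most 1 read, Serpinb2 with 9 to 47 reads and Socs2 with 9 to 28 reads.

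Of 8 genes that make or move tryptophan-derived ligands, 3 were tested and 2 passed with RANKL, where 45.4% of all genes tested did. Il4i1, whose product is an amino acid oxidase that yields indole ligands of AhR, measured 0.367 and 0.394 RPKM in -R, 15.4 and 14.8 RPKM in +R, and 3.27 and 4.0 RPKM in R+LE. It rose with RANKL by a log2 difference of 4.15 (standard error 0.15, adjusted p = 1.77e-11 in limma) and fell with LE by 1.92 (adjusted p = 1.06e-06), and stayed 2.22 above -R. It reached the minimum level only through the libraries with RANKL, and all 2048 bases of its transcript lie under exons annotated to Tbc1d17 on the opposite strand. Slc7a5, a transporter of tryptophan and kynurenine, rose with RANKL from 6.53 and 6.53 RPKM to 10.0 and 11.1 RPKM (log2 difference 0.65, adjusted p = 0.00208 in limma), and Afmid did not pass. Ido1, Ido2, Tdo2, Kmo and Kynu were below the minimum. Kmo, which encodes kynurenine monooxygenase, was read 77 and 100 times in the -R libraries, 10 and 3 times in those with RANKL, and 28 and 12 times in those with RANKL and LE. Ido2 had no read without RANKL, 33 and 23 reads with it, and 13 and 10 reads when LE was added. Without a minimum level 5 genes of this list passed in +R against -R, where 2408 of 18427 genes passed as higher and 2517 as lower.

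Por, the reductase that passes electrons to the P450 enzymes, fell with RANKL from 209.5 and 190.7 RPKM in -R to 36.8 and 37.9 RPKM in +R, and measured 49.3 and 47.0 RPKM in R+LE. On the log2 scale RANKL gave -2.40 (standard error 0.14, adjusted p = 2.81e-09 in limma). LE gave 0.36 over +R, which missed the threshold (adjusted p = 0.13) but passed with libraries centred on the median (adjusted p = 0.0389). Of the other 3 genes of that list, Cyb5b passed with RANKL (0.51, adjusted p = 0.0103), but not without -R replicate 1 or +R replicate 1 (adjusted p = 0.15 and 0.0852). Cyb5a passed with LE (0.79, adjusted p = 0.00682 in limma), but not without +R replicate 2 (0.59) or without a minimum level (adjusted p = 0.0974).

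**Figure D3:**
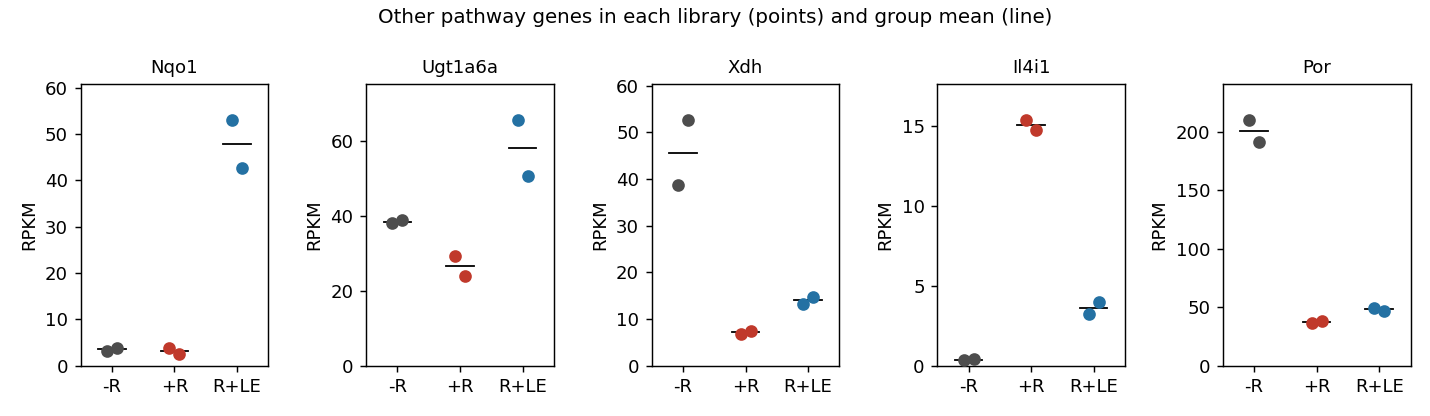
RPKM of 5 other genes of the pathway by condition on linear axes that start at 0, with a point for each library and a line at the mean of 2 libraries. Nqo1 is high in R+LE alone, Il4i1 is highest in +R, and Xdh and Por are highest in -R.

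Among 11 genes of the receptor complex and its cofactors, all tested, 3 passed as higher with RANKL and 2 as lower, a share near the 45.4% of all genes that passed in either direction. The higher genes were Ddb1 (log2 difference 0.77) and Cul4b (0.67), parts of a ubiquitin ligase in which AhR takes part, and the chaperone Hsp90aa1 (0.47). Hsp90aa1 no longer passed without any single -R or +R library, nor without a minimum level (adjusted p = 0.0812 in limma). Ncoa3 (-0.96) and Ncoa1 (-0.75), both coactivators, were lower. Without -R replicate 1 the number passing was 3. None of the 11 passed with LE in limma or in voom, where 12.0% of all genes passed in limma, and 1 had an unadjusted p below 0.05. In R+LE against -R Cul4b also passed as higher and Ncoa1 as lower, but not without a minimum level (adjusted p = 0.086 and 0.119 in limma). Another gene passing in each direction was lost in the same way (adjusted p = 0.111 for the higher and 0.07 for the lower in limma). Ncoa1 lay close to the threshold (adjusted p = 0.0485 in limma). It did not pass with libraries centred on the median (0.0837) or after quantile normalization (0.0928). Against -R, 6 of the 11 passed in R+LE, 3 in each direction, where 34.3% of all genes passed. That number was 1 without -R replicate 1, 3 without -R replicate 2 and 3 without R+LE replicate 1.

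Of 13 other bHLH-PAS factors, 5 were tested, and Hif1a alone passed with RANKL, where 45.4% of all genes tested did. Hif1a fell by 0.73 on the log2 scale, from 30.8 ± 1.83 to 18.4 ± 1.06 RPKM (SD, n = 2 each, adjusted p = 0.000599 in limma). With LE added its log2 difference was 0.43 (adjusted p = 0.059 in limma), and it passed in voom (adjusted p = 0.0278), with the replicate block (0.033), centred on the median (0.0116), after quantile normalization (0.00679), with Rn45s left out (0.0449) and without R+LE replicate 2 (0.0322). Arnt2, the paralog of Arnt, had at most 8 reads in any library. Of 8 hypoxia targets that depend on Arnt, 6 were tested and Vegfa alone passed with RANKL, where 45.4% of all genes tested did. Its log2 difference was -0.78 (adjusted p = 0.00125 in limma). In voom Pgk1 and Bnip3 also passed with RANKL, as higher (adjusted p = 0.0433 and 0.0133). Pgk1 passed too when libraries were centred on the median or quantile normalized, and Bnip3 with the replicate block and with Rn45s left out. The number passing with RANKL was 3 without +R replicate 2 and 3 without either R+LE library. With LE none of the 6 passed in limma, where 12.0% of all genes did, and 2 had an unadjusted p below 0.05, where 23.3% did. In voom Slc2a1 passed (adjusted p = 0.00169). Slc2a1 also passed with LE without +R replicate 1 (adjusted p = 0.000476), and Vegfa without +R replicate 2 (adjusted p = 0.038). In R+LE against -R, Slc2a1 and Pgk1 passed as higher and Vegfa as lower. Without -R replicate 1 and -R replicate 2 in turn, Slc2a1 gave 0.83 and 0.76 and Pgk1 0.64 and 0.73, and neither passed. With all libraries the number passing was 3 of the 6, where 34.3% of all genes passed. With Ldha and Bnip3 the number was 5 in voom, with the replicate block, with Rn45s left out of the depth, without R+LE replicate 2 and when libraries were centred on the median or quantile normalized.

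**Figure D4:**
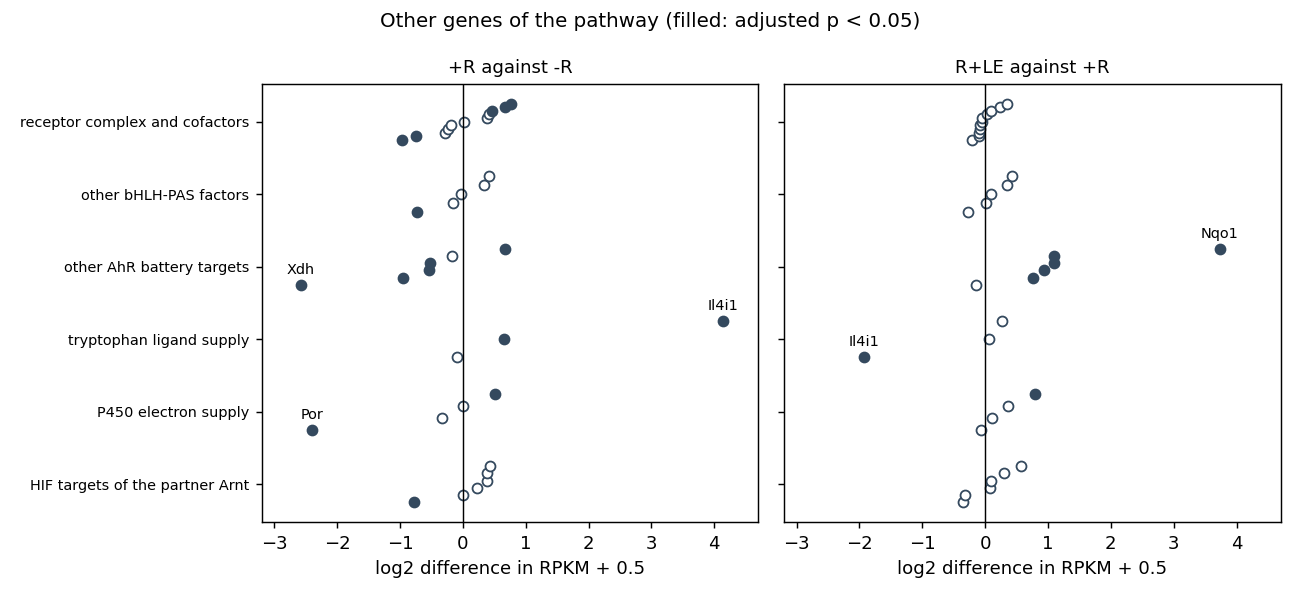
Log2 differences in RPKM + 0.5 of the tested genes of 6 pathway lists, for +R against -R (left) and R+LE against +R (right), with filled points where the adjusted p is below 0.05. Of the AhR battery list, in which both overlapping Ugt1a6 entries are drawn, 5 points lie below 0 on the left and 5 lie above 0 on the right, with Nqo1 farthest at 3.73.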

How the data were processed

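The authors aligned paired reads of 100 bp to mm10 and counted reads on exons with HOMER, without regard to strand and with 1 transcript for each gene, and they deposited RPKM values under column titles that say FPKM. The methods name TopHat as the aligner, and the submitters' processing notes name HISAT2 and DESeq2. Tool versions are not given in the sources used here. Groups came from the sample labels. The members and the gene lists were chosen with earlier results of these data known.

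Log2(RPKM + 0.5) was fitted for the 3 groups together with limma 3.58.1 in R 4.3.3, with a variance trend, for genes averaging 0.5 RPKM or more, and p-values were adjusted over 11595 genes (Benjamini-Hochberg). Multiplying RPKM by length and by the library size that its smallest steps imply returned read numbers. Of the 3304 to 3815 low values per library that could be checked, 100% fell within 0.1 of a whole read. They gave the depth and the limits of 3 reads, which cover counting error only. The script was tested on simulated data. Named genes were the 6 members, the lists, and the 3 nearest profiles of each called member, and 1 gene counted in the lists is not reported by name. Symbols that a spreadsheet had turned into dates (26) were restored. Exon overlaps came from GENCODE M21. Alternatives were other pseudocounts, minimum levels, scalings and fits, voom, a replicate block and each library left out, and, chosen after seeing the data, a depth without Rn45s. Figures were drawn with matplotlib 3.10.9 in Python 3.11.15.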

Additional observations from a re-analysis of the deposited data

How the results depend on the processing

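The rises of Ahr and Ahrr against -R, in +R and in R+LE, kept their direction and an adjusted p below 0.05 under all 17 alternatives. Ahr ranged from 0.88 to 1.42 in +R against -R, and Ahrr from 1.68 to 2.06. Ahr fell short of 2-fold on this scale without -R replicate 2 (0.99) and with a pseudocount of 1 (0.88 in +R and 0.96 in R+LE against -R). Arnt against -R kept its direction, from -0.51 to -0.41 with each library left out in +R and from -0.54 to -0.43 in R+LE, but no longer passed without the libraries named above. Tiparp in +R against -R passed when libraries were centred on the median (log2 difference 0.33, adjusted p = 0.0499) and with Rn45s left out of the depth (0.38, adjusted p = 0.0448). Values near 0 changed sign. In R+LE against +R, Arnt was 0.0249 when centred on the median and 0.0308 after quantile normalization, and from -0.0531 to 0.00105 with each library left out. In the same comparison Cyp1b1 was 0.0493, 0.0184 and 0.00737 when centred on the median, after quantile normalization and with Rn45s left out, and from -0.0793 to 0.0759 with each library left out, and Ahr was from -0.0107 to 0.193. Tiparp in R+LE against -R was from -0.12 to 0.13 with each library left out. Where a call or sign changed, the cause was not tested, except that leaving out a library leaves fewer samples.

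The replicate numbers did not mark shared mice or batches in the labels, and the replicate differences of the groups correlated at -0.046, 0.107 and 0.249, so they were not taken as pairs. With the replicate number as a block, the members' log2 differences were the same (1.08 for Ahr in +R against -R) and no call of a member changed, while genes passing as higher in R+LE against +R went from 602 to 756. Without a minimum level, genes passing in R+LE against +R fell to 241 higher and 340 lower, from 602 and 795. Without -R replicate 1, genes passing as higher went from 2772 to 1761 in +R against -R and from 1773 to 950 in R+LE against -R, and without -R replicate 2 genes passing as lower in R+LE against -R went from 2201 to 1426. Leaving Rn45s out of the depth moved the median log2 difference of all genes in +R against -R from 0.05 to 0.10. With voom on the recovered reads, 2977 genes passed as higher and 2626 as lower in +R against -R, and 752 and 1014 in R+LE against +R. Depth limits what can be read of Cyp1a1 and of the list genes with few reads.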
